A study of Drosophila melanogaster with 2 samples.

Results

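Final peaks at the promoters of single genes were described in a ChIP-seq study of Drosophila melanogaster embryos. A final peak belonged to the set when its summit, the base of highest enrichment, lay within 500 bp of a transcription start site (TSS) of exactly 1 protein-coding gene. This held for 1934 of 6091 final peaks (31.8%), at 1536 genes. Non-final candidates that met the same condition, 4486 of 23909, were the set they were compared with. The embryos were 0 to 16 hours old, males and females pooled, from 1 transgenic line with CG9437 fused at its C terminus to green fluorescent protein (GFP), which the labels list as an insertion for hng1. Both biological replicates form 1 group, and no untagged embryos or other condition were used here, so the comparisons were made between regions of the genome. A free-text label calls the samples an input control, but the assay, antibody and output type labels describe ChIP of a transcription factor, and the lists are treated as such. Whole embryos were used, so cell types cannot be told apart.

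hng1 (hinge1) encodes a protein of the MADF-BESS family, whose MADF domain binds DNA and whose BESS domain mediates contacts between proteins. Adf1, the best known member, activates the Alcohol dehydrogenase gene. In the compact fly genome many promoters lie back to back between diverging genes, so that a peak there cannot be given to either gene. Peaks near the TSSs of 1 protein-coding gene only leave less doubt, but they do not settle the gene. Of these final peaks, 7.39% also had a noncoding TSS within 500 bp and 33.5% another protein-coding TSS within 2000 bp. Single-gene peaks also give the promoter a direction, since upstream and downstream can be told apart.

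The strongest regions showed the sequence pattern that the results below turn on. Stretches of 50 bp on both sides of the summits of 10 of the strongest single-gene peaks are given on the strand of the gene (dm6, sequence from RefSeq Release 6), with every copy of the 6-base word ACGTAA, or TTACGT on the opposite strand, in capitals. In these windows 8 of 10 held the word, with 14 copies in all.
Pi3K21B, chr2L:297672-297772, plus strand: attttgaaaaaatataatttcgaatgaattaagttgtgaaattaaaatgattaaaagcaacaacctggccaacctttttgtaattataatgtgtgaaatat
larp, chr3R:28335639-28335739, minus strand: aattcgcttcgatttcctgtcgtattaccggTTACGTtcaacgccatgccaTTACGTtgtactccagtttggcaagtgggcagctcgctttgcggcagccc
kis, chr2L:251034-251134, minus strand: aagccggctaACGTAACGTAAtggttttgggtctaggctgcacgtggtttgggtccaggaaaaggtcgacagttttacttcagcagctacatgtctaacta
Hrs, chr2L:2739947-2740047, plus strand: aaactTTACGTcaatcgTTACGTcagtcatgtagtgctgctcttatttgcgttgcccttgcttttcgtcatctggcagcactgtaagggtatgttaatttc
Gdi, chr2L:9494822-9494922, minus strand: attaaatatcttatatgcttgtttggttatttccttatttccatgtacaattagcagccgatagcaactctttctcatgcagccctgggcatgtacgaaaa
MICU3, chr3R:19847257-19847357, plus strand: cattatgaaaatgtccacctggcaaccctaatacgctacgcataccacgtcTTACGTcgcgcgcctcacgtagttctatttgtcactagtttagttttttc
CG14990, chr3L:4092852-4092952, plus strand: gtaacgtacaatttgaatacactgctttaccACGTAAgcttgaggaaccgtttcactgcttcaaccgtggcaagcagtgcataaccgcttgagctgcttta
spen, chr2L:182725-182825, plus strand: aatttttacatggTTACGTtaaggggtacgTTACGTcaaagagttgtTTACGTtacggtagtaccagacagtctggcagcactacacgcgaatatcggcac
Atxn7, chr2L:2375809-2375909, plus strand: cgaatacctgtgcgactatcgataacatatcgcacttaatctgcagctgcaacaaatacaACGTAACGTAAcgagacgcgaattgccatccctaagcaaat
frtz, chr2L:1715844-1715944, minus strand: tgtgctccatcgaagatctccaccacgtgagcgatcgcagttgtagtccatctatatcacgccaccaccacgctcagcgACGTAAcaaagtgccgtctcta

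The windows of kis and Atxn7 both held the run ACGTAACGTAA, a tandem pair whose copies share a base. The spen window held 3 copies in 1 orientation, and those of larp and Hrs held 2 copies each, also in 1 orientation. The windows of Pi3K21B and Gdi held none. For comparison, the 2 strongest non-final candidates had these windows, and neither held the word.
ATP6AP2, chr3R:9260525-9260625, plus strand: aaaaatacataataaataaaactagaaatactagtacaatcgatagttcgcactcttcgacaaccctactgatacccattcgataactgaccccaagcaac
Hmt-1, chr3R:15857502-15857602, minus strand: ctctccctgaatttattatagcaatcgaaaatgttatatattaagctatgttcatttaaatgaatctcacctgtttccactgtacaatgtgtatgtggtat

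Signal, the authors' value for each peak in its own list, had a median of 276 over the 1934 peaks and ran from 148 to 19064.5. The 4486 non-final candidates reached at most 148.2, and their median was 65.3. Final peaks are the top of the pooled candidate list, so signal separates the 2 sets by construction. The peaks just inside were at dia, CkIIbeta and east, at 148.5 to 148.6, and the candidates just outside were at ATP6AP2, Hmt-1 and Tsp42En, at 148.1 to 148.2. Of all 6420 single-gene candidates, 30.1% were final. The share ran from 29.3% to 30.9% on the 5 large arms and was 24.3% on chromosome 4, with 18 final peaks and 56 non-final candidates.

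Over the whole lists, peaks with 1 gene in reach were 31.8% of final peaks and 18.8% of non-final candidates. Among final peaks near a protein-coding TSS, such peaks were a smaller share than among non-final candidates. They made up 60.8% of the 3180 final peaks of this kind and 79.9% of the 5616 non-final candidates (Fisher's exact test, two-sided, odds ratio 0.39, 95% interval 0.355 to 0.431, p = 2.3e-81). Peaks within reach of 2 genes accounted for 37.2% of the final peaks and 18.9% of the non-final candidates. Within the final list the single-gene share showed no steady course with signal, at 59.2% of promoter peaks among the 200 strongest final peaks and 64.6% in the weakest of 5 bins, with values between 58.1% and 61.6% in the other 3. Peaks and genes that neighbour each other are not independent replicates, so these p-values and those below measure counts over regions, not variation between embryos.

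The 20 strongest genes covered a wide range of cell functions. Pi3K21B, the regulatory subunit of class I phosphoinositide 3-kinase, had the highest peak, with a signal of 19064.5 in the pooled list, 10048 in replicate 1 and 9125 in replicate 2. larp, an RNA-binding protein that acts on mRNA stability and translation, followed with 18400 pooled, 9985 in replicate 1 and 8424 in replicate 2. kis, a chromodomain helicase, had 16949 pooled, 9262 in replicate 1 and 7782 in replicate 2. These summits ranked among the 9 highest of each replicate's own list.

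Other strong peaks lay at genes of transcription and of membrane traffic. Tbp, the TATA-binding protein, had 16396 pooled, 8140 in replicate 1 and 8375 in replicate 2, and its summit was 49 bp upstream of the TSS. Hrs, which starts ESCRT sorting at endosomes, had 13851 pooled, 7668 in replicate 1 and 6236 in replicate 2. lsn, an ESCRT-II subunit, had 9521 pooled, 4569 in replicate 1 and 5047 in replicate 2. Both ESCRT genes carried the word within 50 bp of a summit close to the TSS, at 11 bp downstream in Hrs and 11 bp upstream in lsn. The rest of the 20 were pcs, Gdi (which recycles Rab GTPases), MICU3 (of the mitochondrial calcium uptake family), CG14990, spen (an RNA-binding regulator of transcription), Atxn7 (a SAGA subunit), frtz (a planar polarity effector), Fhos (a formin), smash, Tbce (a tubulin folding cofactor), CG12219, thoc6 (a THO subunit for mRNA export), SerRS-m (the mitochondrial seryl-tRNA synthetase) and TER94 (an ATPase that extracts ubiquitinated proteins). Of the 20 summits, 16 carried the word, 16 lay upstream of the TSS and 11 were at genes with more than 1 TSS.

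Summits sat mostly just upstream of the TSS. The median offset was -134.5 bp (quartiles -261 and 1) in the final peaks and -43 bp (quartiles -242.8 and 149) in the non-final candidates. Upstream summits made up 74.6% of final peaks and 56.8% of non-final candidates (odds ratio 2.23, 95% interval 1.98 to 2.51, Fisher's exact test, adjusted p = 1.4e-41 over 14 features). The densest 50-bp step of the final peaks, 150 to 200 bp upstream, held 11.0% of them and 5.28% of the non-final candidates, whose own densest step was the 50 bp before the TSS with 8.29%. Proximity alone did not separate them. Summits within 100 bp of the TSS were 30.1% of final and 29.2% of non-final ones (odds ratio 1.04, 95% interval 0.929 to 1.17, exact adjusted p = 0.573). With the reach set to 1000 bp that difference passed the test (odds ratio 1.201, exact adjusted p = 0.0046).

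**Figure D1:**
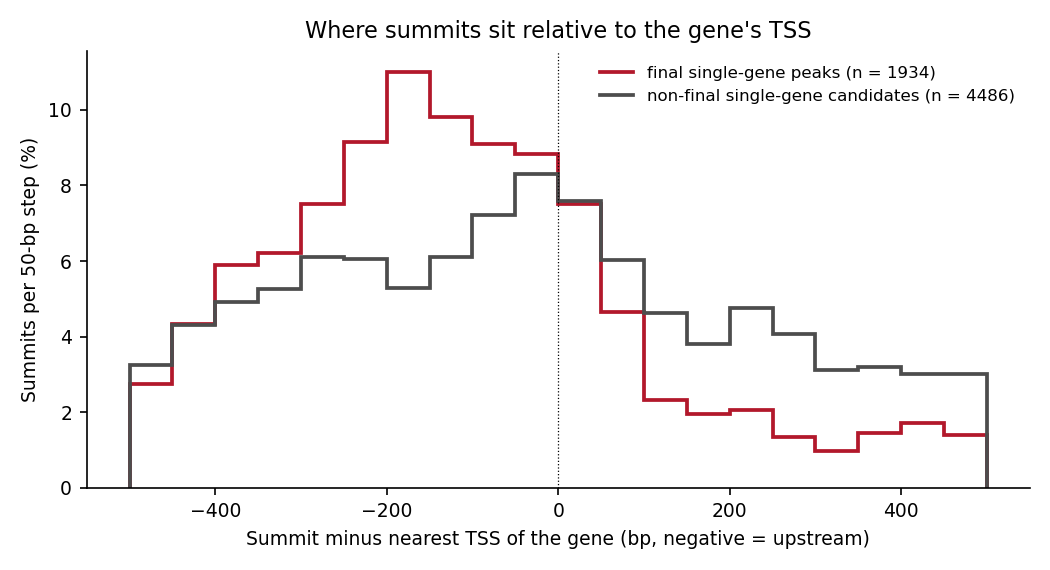
Percentage of summits in 50-bp steps of the distance from the nearest TSS of the gene (bp, negative is upstream), for final single-gene peaks and non-final single-gene candidates. The final peaks are densest at 150 to 200 bp upstream (11.0%) and thin out beyond 100 bp downstream, where the non-final candidates continue at 3.01% to 4.75% a step.

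Position relative to transcripts differed in the same direction. Intergenic summits were 42.6% of final and 30.9% of non-final ones (odds ratio 1.66, exact adjusted p = 2.1e-18). Summits in a coding exon of the gene were 1.71% of final and 7.82% of non-final ones (odds ratio 0.205, exact adjusted p = 7.9e-25). The 5′ UTR held 18.3% of final and 23.5% of non-final summits (odds ratio 0.725, exact adjusted p = 6.1e-06). Summits in other exons were 2.33% of final and 3.63% of non-final ones (odds ratio 0.632, exact adjusted p = 0.0123), a call that was lost when the 6091 strongest candidates of replicate 2 alone took the place of the final list (odds ratio 0.821, exact adjusted p = 0.334). That difference also turned to 1.11 when 1 summit per gene was kept (exact adjusted p = 0.719). Introns (27.5% of final and 25.6% of non-final summits) and the bodies of other genes (7.70% and 8.49%) did not pass the test.

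The architecture of the gene also differed, by an amount that depended on how summits were counted. Genes with more than 1 TSS held 59.5% of final and 54.3% of non-final summits (odds ratio 1.24, exact adjusted p = 2.9e-04). Genes with more than 1 candidate summit held 67.6% of final and 59.6% of non-final summits (odds ratio 1.41, exact adjusted p = 4.8e-09). Candidate summits were counted in the same pooled list that holds the final peaks, and several can lie in 1 called region. The count may therefore depend on the signal that sets final peaks apart, and no conclusion is drawn from it. With the strongest summit per gene only, the odds ratios were 1.88 for more than 1 TSS and 3.59 for more than 1 candidate summit. That setting compares genes that have a final summit with genes that have none. A gene with more candidate summits has more chances of a final one, so 3.59 is in part fixed by the counting. The same may hold for 1.88, and no conclusion is drawn from either value. Neither feature passed when the reach was set to 250 bp, with odds ratios of 0.98 and 0.967 (exact adjusted p = 0.745 and 0.636). A TSS of a noncoding gene lay within 500 bp of 7.39% of final and 5.17% of non-final summits (odds ratio 1.46, exact adjusted p = 0.0012), a call that was also lost at 250 bp (exact adjusted p = 0.381). In genes with more than 1 TSS, the nearest TSS was the 5′-most one for 43.4% of final summits (exact 95% binomial interval 40.5% to 46.3%) and 38.4% of non-final summits (36.5% to 40.4%).

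The neighbourhood of the promoter did not pass the test, but its direction turned with the settings. The nearest upstream protein-coding gene diverged from the gene at 40.1% of all final and 39.97% of all non-final summits (odds ratio 1.01, 95% interval 0.903 to 1.12, exact adjusted p = 0.912). Summits with no such neighbour, or with the TSS inside another protein-coding gene, counted as not divergent. A neighbour was found for 1792 of 1934 final and 4084 of 4486 non-final summits. Another protein-coding TSS lay within 2000 bp of 33.5% of final and 34.4% of non-final summits (odds ratio 0.961, exact adjusted p = 0.573). With the reach at 250 bp, where more promoters of close pairs count as single-gene, both were more frequent at final peaks (odds ratios 1.30 and 1.37, exact adjusted p = 2.3e-05 and 3.6e-07). Another TSS within 2000 bp was less frequent at final peaks with the stronger 3045 final peaks only (odds ratio 0.837, exact adjusted p = 0.0255) and with the strongest summit per gene only (odds ratio 0.826, exact adjusted p = 0.0072). The X chromosome held 17.8% of final and 17.2% of non-final summits (exact adjusted p = 0.636). In all, 8 of 14 features passed, 5 of them higher and 3 lower in the final peaks. The 5 include the candidate summit count, from which no conclusion is drawn.

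**Figure D2:**
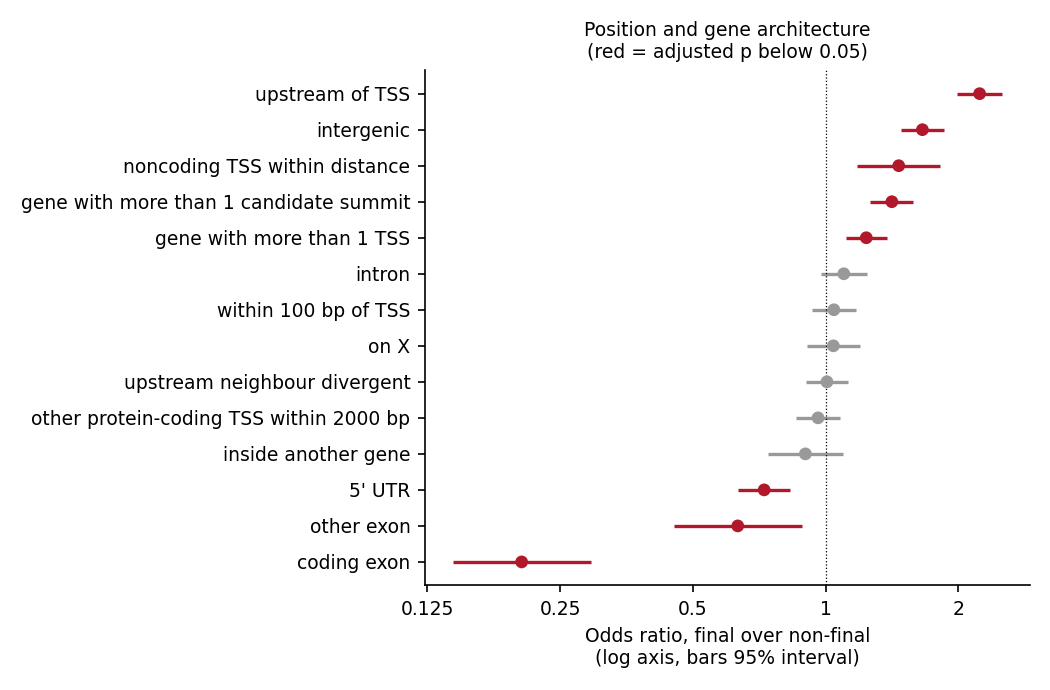
Odds ratios with 95% intervals, on a log axis, for 14 features of position and gene architecture, final single-gene peaks over non-final single-gene candidates. Red points passed the adjusted threshold of 0.05 (upstream position highest at 2.23, coding exon lowest at 0.205), and grey points did not.

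The word ACGTAA was the 6-mer that separated the summits most clearly. It stood within 50 bp of 243 of 1934 final summits (12.6%) and 186 of 4486 non-final summits (4.15%), an odds ratio of 3.32 (95% interval 2.72 to 4.05, Fisher's exact test, adjusted p = 9.7e-29 over all 6-mers, reverse complements merged). Windows of the same width centred on all 19253 protein-coding TSSs, and not on summits, held it in 2.96% of cases. The same final peaks carried it in 2.69% of windows centred 500 bp from the summit on the side away from the TSS (exact McNemar test, two-sided, adjusted p = 4.1e-29). Words that overlap it were also more frequent at final summits, with AACGTA in 9.77% of final and 4.21% of non-final windows (exact adjusted p = 2.3e-14) and CGTAAC in 6.57% and 2.54% (exact adjusted p = 1.4e-11).

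The share of windows with ACGTAA depended on the strength of the peak. It was 54% in the 100 strongest single-gene peaks (exact 95% binomial interval 43.7% to 64.0%), 20% in the next 200 (14.7% to 26.2%) and 10.7% in the 300 after those (7.41% to 14.7%). The following 400 had 10.8% and the weakest 934 had 7.92%, against 4.15% in the non-final candidates. The flank windows stayed between 2% and 4% in all 5 bins. Final peaks with the word had a median signal of 480, and those without it 263.

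**Figure D3:**
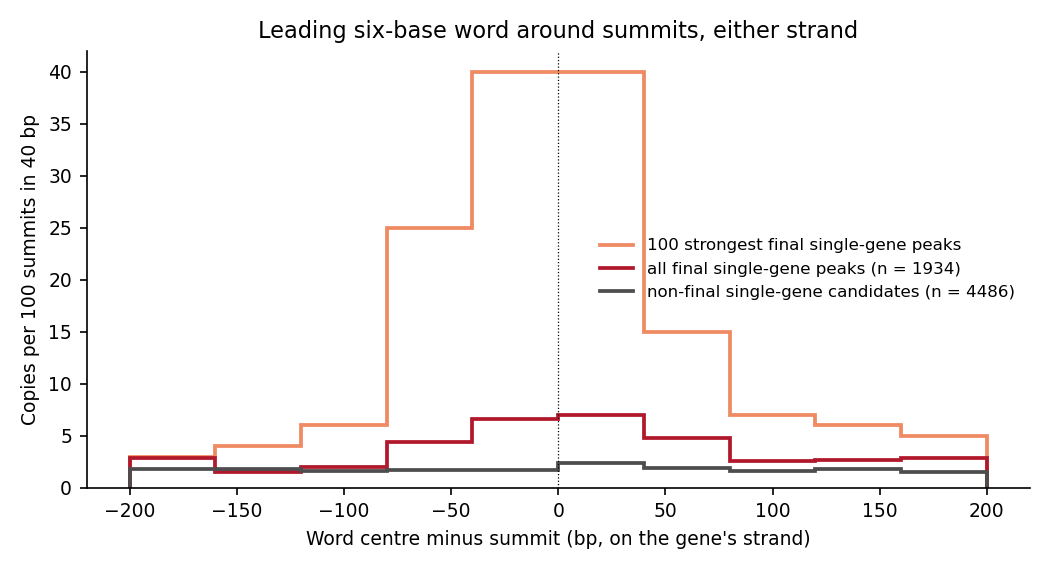
Copies of the leading 6-base word, counted on both strands, per 100 summits in 40-bp steps from the summit, for the 100 strongest final single-gene peaks, all 1934 of them and the 4486 non-final candidates. The strongest peaks reach 40 copies per 100 summits within 40 bp on each side, all final peaks reach 7.03, and the non-final candidates stay between 1.54 and 2.39 across the range.

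Copies lay on either strand, and those that shared a window were often in tandem. Of 312 copies in final windows, 162 were on the strand of the gene (51.9%, exact binomial test, two-sided, p = 0.534). Final windows held 69 pairs of neighbouring copies, of which 11 were 1 palindrome (TTACGTAA) read on both strands. Of the other 58 pairs, 46 had both copies on 1 strand (79.3%, exact 95% binomial interval 66.6% to 88.8%), and 34 of those started 5 to 20 bp apart. Non-final windows held 21 pairs, 17 of them the palindrome, which leaves 4 pairs of distinct sites in 4486 windows.

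The closest tandem form, ACGTAACGTAA on either strand, was found at 10 final summits and at none of the non-final ones. The summits were at kis, Atxn7, COX7C (a subunit of cytochrome c oxidase), pico, Gnpnat (glucosamine-phosphate N-acetyltransferase), CG11426, fz2 (a Wnt receptor), bol (an RNA-binding protein of the male germline), slim and alpha-Cat (alpha-Catenin, which links cadherins to actin). Of these, 9 were among the 100 strongest single-gene peaks, and alpha-Cat ranked 339 with a signal of 641. The form was looked for after the windows had been seen, so no test is given.

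Peaks with the word also sat elsewhere than peaks without it. Their summits were upstream of the TSS in 58.0% of cases (exact 95% binomial interval 51.5% to 64.3%), against 77.0% (74.9% to 79.0%) without the word. They were within 100 bp of the TSS in 43.2% of cases (36.9% to 49.7%), against 28.2% (26.1% to 30.4%) without it. The median G+C content of their windows was 42.6%, against 34.7% without it. These splits were chosen after the values were seen and are given with no test.

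Base composition moved with the comparison as a whole. The median G+C content of the windows was 35.6% in final peaks and 41.6% in non-final candidates. Of all 6-mers, 168 were more frequent in final windows (8.08%) and 216 less frequent (10.4%). Of the 36 words with no G or C, 35 were more frequent, and of the 192 words with 5 of them, 51 were less frequent and none more. Within 5 strata of G+C content (exact conditional Cochran-Mantel-Haenszel test), 29 words passed as higher and 6 as lower, and ACGTAA led with an odds ratio of 3.48 (exact adjusted p = 1.1e-33), followed by CGTAAC (3.14) and AACGTA (2.39). In replicate 2 alone the unstratified counts were 105 higher and 99 lower. Against the flanks of the same peaks, 189 words were more frequent at the summit (9.09%) and 301 less frequent (14.5%).

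Known promoter motifs differed less than the leading word, and apart from that word 12 of 21 passed at the summits. DRE, the element bound by the promoter factor DREF, was searched as TATCGATA and found in 2.69% of final and 1.63% of non-final windows (odds ratio 1.67, exact adjusted p = 0.0182), against 4.48% of windows at all protein-coding TSSs. Its core ATCGAT was found in 7.60% of final and 5.42% of non-final windows (odds ratio 1.44, exact adjusted p = 0.0035; 11.1% at all TSSs). The Ohler 7 core CATCNCTA was in 2.17% and 1.05% (odds ratio 2.10, exact adjusted p = 0.0030; 3.39% at all TSSs) and the Motif 1 core GGTCACAC in 1.91% and 1.14% (odds ratio 1.70, exact adjusted p = 0.0406; 4.68% at all TSSs). The core of the cyclic AMP response element, TGACGT, which shares letters with the leading word, was in 3.83% and 2.72% (odds ratio 1.42, exact adjusted p = 0.0406; 2.82% at all TSSs). The shares at all TSSs, here and in the next paragraph, are of windows centred on the TSS and not on a summit. They cover other positions and do not compare how common a motif is at these promoters. Searched from 150 bp upstream to 50 bp downstream of the TSS, DRE was at 7.08% of final peaks and 6.79% of all TSSs. For its core the shares were 17.3% and 17.2%, for Motif 1 7.45% and 5.98%, and for Ohler 7 5.58% and 4.66%. None of the 5 calls at summits held in every setting. The DRE call was lost in either replicate alone (odds ratios 1.32 in replicate 1 and 1.33 in replicate 2), with the stronger 3045 final peaks, with genes of any biotype, with 1 summit per gene and in windows of 25 bp. The Motif 1 call was also lost in either replicate alone (1.38 in replicate 1 and 1.46 in replicate 2), at 250 bp, with any biotype and with 1 summit per gene, and it came to 1.01 with the stronger peaks. The DRE core was lost in replicate 2 alone (1.16), with the stronger peaks (1.35) and at 1000 bp. Ohler 7 was lost in replicate 1 alone (1.45) and in windows of 25 bp (2.07). The cyclic AMP response core was lost in replicate 2 alone (1.16), at 250 bp, with 1 summit per gene and in windows of 100 bp. All motifs were searched on both strands, and a match is a run of letters, not a measured site.

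Several of these calls depended on the composition of the windows. TATAAA was in 18.8% of final and 13.8% of non-final windows (odds ratio 1.45, exact adjusted p = 4.3e-06; 15.5% at all TSSs), but within strata of G+C content the odds ratio was 0.926 (exact adjusted p = 0.422). The homeodomain core TAATTA was in 7.76% and 6.09% (odds ratio 1.30, exact adjusted p = 0.0406; 2.99% at all TSSs), and 0.884 within strata (exact adjusted p = 0.422). That call was also lost in replicate 2 alone (1.17), with the stronger peaks, with any biotype and with 1 summit per gene. GAGAG, bound by GAGA factor, was in 11.1% and 15.6% (odds ratio 0.673, exact adjusted p = 9.7e-06; 12.7% at all TSSs), and within strata 0.87 (exact adjusted p = 0.215). The calls for CTCTCT, the Zelda site CAGGTAG, the Adf1-type triplets GCNGCNGC and the Pho core GCCAT, all less frequent in final windows, were not kept within strata either. In replicate 2 alone the triplets were at 0.808 and the Zelda site at 0.732, against 0.490 and 0.319 in the final list, and neither passed. Within strata of G+C content on the final list, 7 motifs passed, all more frequent in final windows. They were ACGTAA, the cyclic AMP response core, both forms of the DRE, the BEAF-type CGATA, Motif 1 and Ohler 7. In replicate 2 alone 6 motifs passed without strata.

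Core promoter elements were searched at the TSS itself, whatever the place of the summit. Shares are of summits, each with the nearest TSS of its gene, so 1 promoter can count more than once. The TATA box (TATAAA, 45 to 15 bp upstream, gene strand) was found for 3.26% of final and 6.04% of non-final summits (odds ratio 0.524, 95% interval 0.396 to 0.693, exact adjusted p = 2.5e-05), and at 7.77% of all protein-coding TSSs. With 1 summit per gene the odds ratio was 0.471 (exact adjusted p = 4.9e-06). The direction is the opposite of that of TATAAA around the summit. CTTTT within 10 bp of the TSS, as in the TCT initiator of ribosomal protein genes, was found at 4.55% and 3.14% (odds ratio 1.47, exact adjusted p = 0.0262; 3.35% of all TSSs). GAGAG from 150 bp upstream to 50 bp downstream was found at 38.7% and 34.8% (odds ratio 1.19, exact adjusted p = 0.0145; 25.6% of all TSSs), but at a reach of 250 bp it was lower at final peaks (odds ratio 0.84, exact adjusted p = 0.0177). The initiator core, DPE, MTE core, DRE, DRE core, Motif 1, Ohler 6, Ohler 7 and E-box forms did not pass, which left 3 of 12 elements. In replicate 1 alone 5 of 12 passed.

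Against the 1246 final peaks within reach of 2 or more genes, single-gene peaks differed in 29 words. Of all 6-mers, 9 were more frequent at single-gene summits (0.433%) and 20 less frequent (0.962%). AGAGAG, which is CTCTCT on the opposite strand, was in 5.58% of single-gene and 1.93% of multi-gene windows (odds ratio 3.01, exact adjusted p = 9.9e-05), and within strata of G+C content 2.71 (exact adjusted p = 0.0036). The call against multi-gene peaks was lost at a reach of 250 bp (odds ratio 1.68, exact adjusted p = 0.392), with the stronger 3045 final peaks (2.31) and in windows of 25 bp (2.42). Against non-final candidates the same word was lower (odds ratio 0.77). Adjusted over all 6-mers and not over the motifs, that difference did not pass (Fisher's exact test, adjusted p = 0.088). ATTAAT was in 8.63% and 15.3% (odds ratio 0.522, exact adjusted p = 2.2e-05), and within strata 0.612 (exact adjusted p = 0.0126). The DRE core ATCGAT was in 7.60% and 12.1% (odds ratio 0.597, exact adjusted p = 0.0044), and within strata 0.514 (exact adjusted p = 3.3e-04). The odds ratio was 1.01 at 250 bp, and the call was also lost with the stronger peaks (0.602), with 1 summit per gene (0.701) and in windows of 25 bp (0.805). Of the 8 words that passed within strata, ATTAAT was the only one without G or C.

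ACGTAA was in 12.6% of single-gene and 8.19% of multi-gene windows (odds ratio 1.61, exact adjusted p = 0.0116), but the call did not hold throughout. It was lost in replicate 2 alone (odds ratio 1.27, exact adjusted p = 0.295) and within strata of G+C content (odds ratio 1.42, exact adjusted p = 0.328), which were added after the data were seen. The median G+C content was 35.6% in single-gene and 32.7% in multi-gene windows. In replicate 2 alone 66 words differed, in place of 29, and within strata 8 did.

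Genes were described by lists of known function, each as the share of its genes with a final single-gene peak among its genes with any single-gene candidate. Over all genes that share was 37.6%, 1536 of 4080, and 32 of 36 lists had at least 5 genes with a candidate. Genes left out of these counts share their promoter or had no candidate. The lists were chosen with results of these data known and are described by their counts alone, with no test. Among these 32 lists, only the intervals of cytosolic ribosomal proteins and the Notch pathway lay wholly above 37.6%. Only those of DNA replication and cuticle proteins lay wholly below it. The intervals are not adjusted for the number of lists, so lying above or below is a description and not a test result. A gene with more candidate summits has more chances of a final one, and the lists were not matched for this. The lists hold selected genes, matched by symbol, and not whole families, so that leading genes below lead among the listed ones. Final single-gene peaks at genes outside the lists, named after their values were seen, were those of the kinesin genes cmet (354) and nod (210), the cytochrome P450 gene shd (348), and, of the Notch pathway, E(spl)m3-HLH (1262) and gro (704.5).

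Genes of protein synthesis had shares above that of all genes, but only the cytosolic ribosomal interval lay wholly above it. Cytosolic ribosomal protein genes had a final peak in 35 of 51 cases (68.6%, exact 95% binomial interval 54.1% to 80.9%), though their peaks were moderate, with a median of 335 among the final ones against 297 over all genes. The strongest were RpS10b, with 694 pooled, 399.6 in replicate 1 and 299 in replicate 2, and RpS3A, with 502 pooled, 298 in replicate 1 and 198 in replicate 2. Both summits lay within 50 bp upstream of the TSS and neither carried ACGTAA. Translation initiation factors had 8 of 15, led by eIF4A, the RNA helicase of cap-dependent initiation (7201 pooled, 3632 in replicate 1, 3622 in replicate 2), and by the cap-binding eIF4E1 (1350 pooled, 803 in replicate 1, 567 in replicate 2). Mitochondrial ribosomal proteins had 6 of 11, led by mRpL41 (1671) and mRpL9 (741), and aminoacyl-tRNA synthetases 3 of 7, led by SerRS-m (7750) and IleRS-m (2093).

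Counts of signalling pathways varied from list to list, and only the Notch interval excluded the share of all genes. The Notch pathway had 9 of 12 (75%, interval 42.8% to 94.5%), led by the ligand Delta (711 pooled, 389 in replicate 1, 328 in replicate 2) and the transcriptional repressor E(spl)m7-HLH (690). The insulin and PI3K pathway had 7 of 12, with Pi3K21B and the transcription factor foxo (569) strongest. The Wnt pathway had 8 of 17, led by the receptor fz2 (2896 pooled, 1389 in replicate 1, 1542 in replicate 2) and the kinase sgg (857). The EGFR and Ras pathway had 6 of 15, near the share of all genes, with the EGFR inhibitor aos (1053) and the ligand spi (1014) strongest. The Hippo pathway had 2 of 8, Mer (286) and crb (214.5).

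Genes of transcription and chromatin were at or above the share of all genes, apart from Mediator. Every interval of these lists, that of Mediator too, included the share of all genes. Basal transcription factors had 5 of 10, led by Tbp and Taf4 (326), whose summit had no partner within 100 bp in replicate 1. Chromatin remodellers had 3 of 6, led by kis and E(bx), the large NURF subunit (294), and insulator proteins also had 3 of 6, led by Trl, which encodes GAGA factor (339), and BEAF-32 (261). Polycomb group genes had 5 of 11, with the neighbouring paralogs ph-p (903) and ph-d (189) strongest. Mediator had 1 of 5, MED4 (205), and its second gene, MED21 (107), was not final. The MADF-BESS family of the tagged protein had 2 of 5, led by hng3 and stwl (191). The gene hng3 had a final single-gene peak (515 pooled, 293.5 in replicate 1, 232 in replicate 2). The promoter of hng1 itself carried final peaks of 277 and 200.5, but 2 protein-coding genes lay within reach, as at the non-final candidates of hng2 and Adf1. The tagged gene is therefore not in the set.

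Genes of membrane traffic, stress and energy were mixed. ESCRT genes had 4 of 6, with Hrs and lsn strongest, and heat shock proteins 5 of 8, led by the mitochondrial chaperonin Hsp60A (2051) and the small chaperone Hsp27 (888). Rab GTPases had 3 of 10, led by Rab11 (1453) and Rab5 (440), and the vacuolar ATPase 3 of 8, led by Vha16-1 (190) and VhaM9.7-c (168). The proteasome had 2 of 7, Rpn11 (279) and Rpn10 (183), and the Rpn10 summit had no partner within 100 bp in replicate 2. Complex I had 1 of 8, ND-B14.5B (589), followed by the non-final ND-MLRQ (120), and autophagy genes had 1 of 6, Atg13 (1328), followed by the non-final Atg8a (137.5).

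Genes of the cell cycle, of pattern and of differentiated tissues were mostly below the share of all genes. Only the DNA replication and cuticle protein intervals lay wholly below it. DNA replication genes had 0 of 9 (interval 0% to 33.6%), and their strongest candidates, geminin (119) and Orc2 (92.0), were non-final. The listed tubulins and kinesins (symbols such as Klp and Kif) had 0 of 7, with Klp10A (112) and betaTub56D (108) highest, and cuticle proteins 0 of 14 (interval 0% to 23.2%), with Edg91 (127) and Cpr67Fa1 (116) highest. Cyclins and cell cycle kinases had 5 of 12, led by Cdk4 (391) and grp, the Chk1 kinase (236). Neither of these summits had a partner within 100 bp in replicate 2. Segmentation genes had 3 of 15, with the homeobox genes inv (693) and bcd (185) strongest, and Hox genes 2 of 5, Antp (297) and Dfd (205).

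Structural and sensory genes showed the same range. Muscle genes had 3 of 12, led by sls, the titin-like protein (466), and the tropomyosin Tm1 (450.1). Genes of neuronal signalling had 3 of 10, led by brp, a protein of the synaptic active zone (1698 pooled, 852 in replicate 1, 847 in replicate 2), and Syx1A, a syntaxin of vesicle fusion (1310 pooled, 654 in replicate 1, 667 in replicate 2). Both neuronal summits carried ACGTAA. Cytochrome P450 genes with Cyp symbols had 4 of 21, led by Cyp6v1 (215) and Cyp6t1 (197), and odorant and gustatory receptors 1 of 7, Gr39a (186), with the non-final Or88a (94.5) next.

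**Figure D4:**
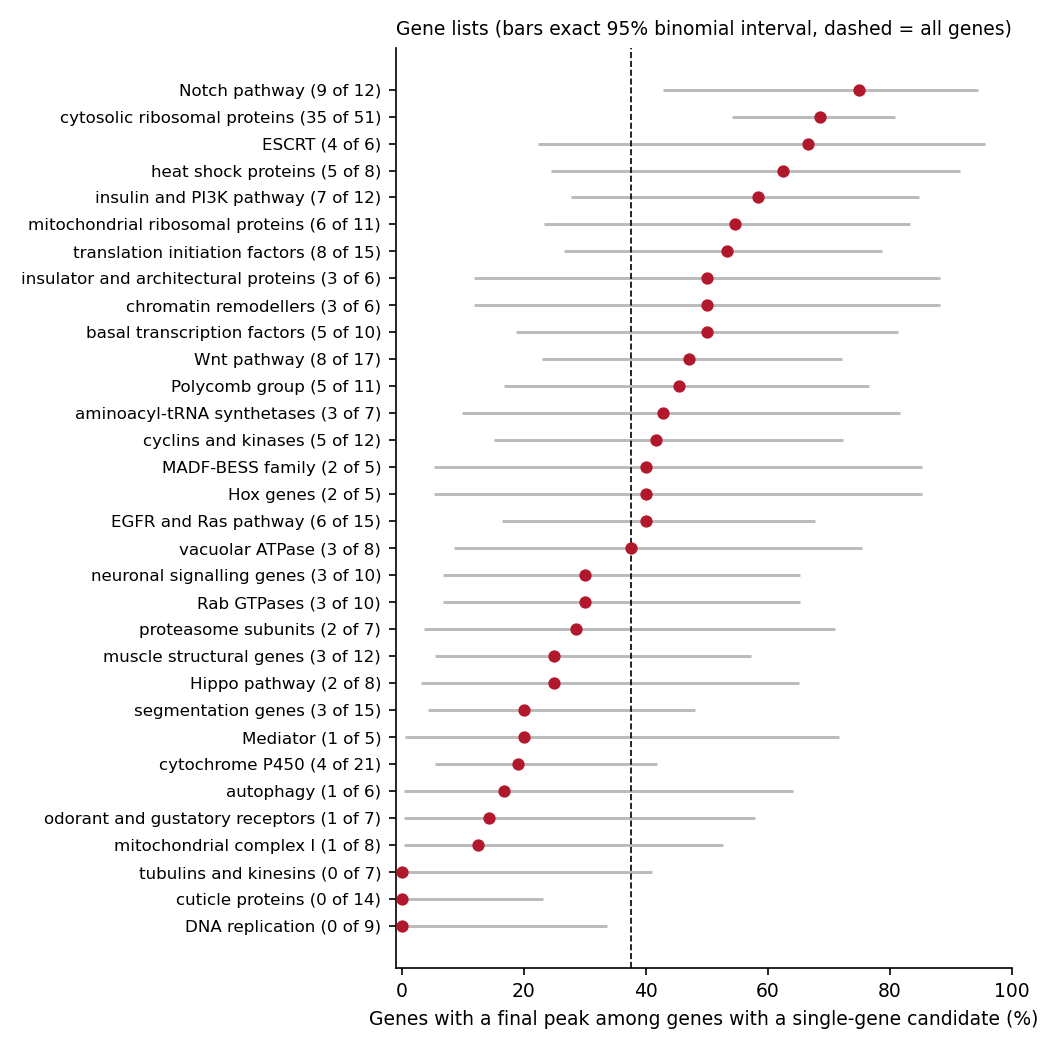
Percentage of genes with a final single-gene peak among the genes with any single-gene candidate, for the 32 lists of selected genes with at least 5 such genes, with exact 95% binomial intervals. The intervals are not adjusted for the number of lists. The dashed line marks all genes (37.6%), the Notch pathway (9 of 12) and cytosolic ribosomal proteins (35 of 51) stand highest, and DNA replication (0 of 9), cuticle proteins (0 of 14) and the listed tubulins and kinesins (0 of 7) stand at 0.

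Most genes had 1 final summit, and a few had several. There were 1191 genes with 1, 307 with 2, 26 with 3, 9 with 4 and 3 with 5. The last were larp, dnc, a cyclic AMP phosphodiesterase, and CHES-1-like, a forkhead factor. The 5 summits of larp, which has 6 TSSs over 18279 bp, had signals of 18400, 6734, 2114, 1416 and 346. In dnc, with 9 TSSs over 167328 bp, all 5 summits lay upstream of their TSSs, with signals of 961 to 227. In CHES-1-like, with 4 TSSs, they ran from 870.2 to 180.4.

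Summits called at 1 gene were often at a near constant distance. Of 398 gaps between neighbouring final summits of a gene, 222 (55.8%) measured more than 200 and up to 230 bp. Another 28 measured 200 bp or less, and the smallest was 199 bp. Among all single-gene candidates the smallest gap was also 199 bp, and 934 of 2340 gaps (39.9%) measured 200 to 230 bp. The larp pair of 2114 and 346 and the CHES-1-like pair of 870.2 and 423.6 are examples, each at 1 TSS. In each example both summits lay in 1 and the same called region. The median region of the final peaks was 530 bp wide, more than most of these gaps. A count of summits per gene is therefore not a count of separate sites. The peak caller is not given in the sources used here, and its part in the spacing was not tested.

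Both replicates held most of the final single-gene peaks. A candidate summit lay within 100 bp of 95.8% of them in replicate 1, of 94.2% in replicate 2 and of 90.6% in both (exact 95% binomial interval of the last 89.2% to 91.9%). Among multi-gene final peaks 91.6% were found in both, and among non-final single-gene candidates 36.6%. At a distance of 50 bp the share in both was 69.0% of final single-gene peaks, and at 200 bp it was 97.9%. The 1752 peaks found in both had signals that ordered alike, with a Spearman rank correlation of 0.803 across peaks of 1 sample pair, which are not independent replicates. Replicate 1 over replicate 2 had a median ratio of 1.12 (quartiles 0.888 and 1.39), and 89.7% of peaks were within 2-fold. For the 100 strongest the median ratio was 1.01. The final list was made from both replicates, so this is a description of the list and not an independent check.

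**Figure D5:**
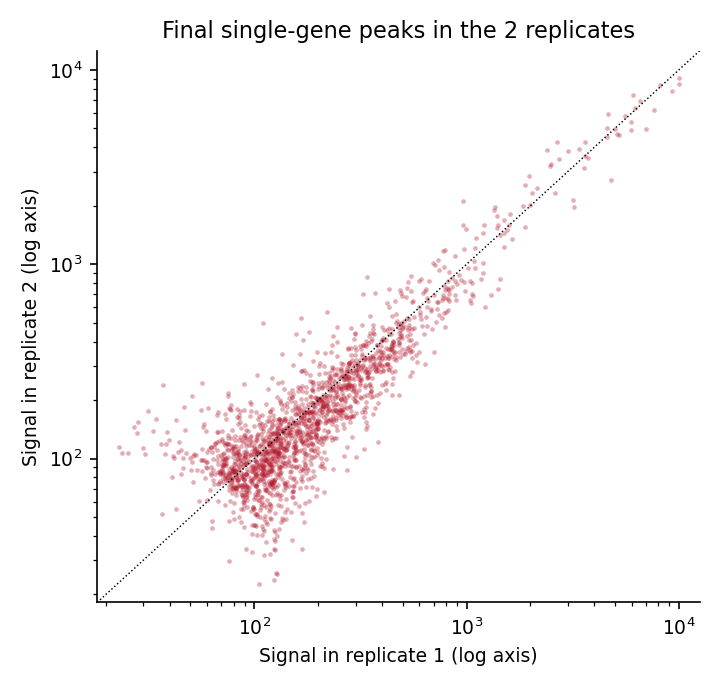
Signal of the 1752 final single-gene peaks with a summit within 100 bp in both replicates, replicate 1 against replicate 2, both on log axes, 1 point per peak and the dotted line at equal signal. Points spread widely at low signal and close in on the line among the strongest peaks, where the median ratio for the 100 strongest is 1.01.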

How the data were processed

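ChIP-seq peak lists of 2 biological replicates were used. Per the labels, chromatin was sonicated to fragments of 200 to 800 bp, and coordinates are on dm6. Candidate regions came, per the deposited manifests, from each replicate's alignment and a common control alignment, and the final list from both replicates by irreproducible discovery rate (IDR). The signal value of each peak is the authors', deposited with no scaling between lists, and served to rank and describe peaks within a list. No aligner, peak caller or IDR threshold is named (not given in the sources used here), and library depth is unknown. Nothing says whether the replicates came from separate collections of embryos.

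Summits were placed on Ensembl release 115 TSSs, and sequence came from RefSeq Release 6, the same assembly. Fisher's exact test (two-sided) compared final with non-final or multi-gene summits, and the exact McNemar test compared summits with flanks 500 bp away, each adjusted by Benjamini-Hochberg within its family (14 features, 22 motifs, 12 core elements or all 6-mers) at a threshold of 0.05. Strata of G+C content were tested with the exact conditional Cochran-Mantel-Haenszel test. Windows reached 50 bp to each side. Shares have exact (Clopper-Pearson) 95% intervals, which cover counting error only; odds ratios have Woolf intervals. The work used scipy 1.17.1, pandas 2.3.3 and numpy 2.4.6 under Python 3.11.15, with figures by matplotlib 3.10.9. The 3 tests of 6-mers were tried on real windows with a planted word, and Fisher's test also on a random split of real windows. The Cochran-Mantel-Haenszel test was tried without division into strata. Features, motifs and core elements were not tried in this way.

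The members, lists and tests were chosen with earlier results of these data known. Named genes were the 20 strongest, the 2 strongest of each list with at least 5 candidate genes, the 3 peaks just inside and the 3 just outside the final list, the 3 genes with most summits, and hng1, hng2, hng3 and Adf1. Listed symbols that the annotation has replaced were matched through RefSeq synonyms. Genes with the tandem word and the G+C strata for multi-gene peaks were added after the data were seen.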

Additional observations from a re-analysis of the deposited data

How the results depend on the processing

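The tested results, the single-gene share, the share of genes with a final peak and (at other distances only) recovery in the replicates were recomputed with either replicate's own list in place of the final one, with the stronger 3045 final peaks only, with a reach of 250 or 1000 bp, with genes of any biotype, with 1 summit per gene, and for words and motifs with windows of 25 or 100 bp and in 5 strata of G+C content. The single-gene share, the upstream share and ACGTAA against non-final candidates kept direction and call in every setting run. Gene list shares, shares by rank, copy pairs, the place of the 5′-most TSS, summit gaps and summits per gene were not recomputed. No paired analysis was possible because both replicates form 1 group. Depth is unknown.

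The odds ratio of summits within 100 bp was 0.924 with the higher signal threshold and 0.898 at 250 bp, and it passed at 1000 bp (1.201). The call of ACGTAA against multi-gene peaks was lost without replicate 1 (1.27; without replicate 2 it was 1.59), with the higher threshold (1.62), at 1000 bp (1.39), in windows of 25 bp (1.74) and 100 bp (1.30), and in G+C strata (1.42). Counts moved most. Words higher in final windows numbered 105 to 200 with 1 replicate left out, 98 in windows of 25 bp and 29 in G+C strata. Words lower numbered 99 to 306 with 1 replicate left out, 142 at 250 bp, 355 at 1000 bp, 58 and 414 in windows of 25 and 100 bp, and 6 in strata. Words higher than in flanks numbered 112 with the higher threshold, 71 in windows of 25 bp and 71 with flanks 250 bp away (145 to 155 with 1 replicate left out). Passing motifs numbered 6 to 10 with 1 replicate left out, 7 with the higher threshold, 8 with any biotype, 7 with 1 summit per gene and 7 in strata. Core elements numbered 4 to 5 with 1 replicate left out, 7 at 250 bp and 5 at 1000 bp. Words differing from multi-gene windows numbered 33 to 66 with 1 replicate left out, 8 with the higher threshold, 52 at 250 bp, 17 at 1000 bp, 17 with any biotype, 7 and 143 in windows of 25 and 100 bp, and 8 in strata. The share of genes with a final peak was 23.6% with the higher threshold and 41.9% at 250 bp. Recovery in both replicates was 69.0% at 50 bp and 97.9% at 200 bp.

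Single features turned direction in these cases. At 250 bp the odds ratios were 0.98 for genes with more than 1 TSS, 0.967 for genes with more than 1 candidate summit, 1.37 for another TSS within 2000 bp 0.84 for GAGAG at the TSS and 1.01 for ATCGAT against multi-gene peaks. The divergent neighbour was 0.988 to 1.03 with 1 replicate left out, 0.956 with the higher threshold and 0.961 at 1000 bp, and other exons were 1.11 with 1 summit per gene. In G+C strata TATAAA was 0.926, TAATTA 0.884 and GCCAT 1.00. The cause of these shifts was not tested. The higher threshold and 1 summit per gene leave fewer peaks to test.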
